A study of Mus musculus with 16 samples.

Results

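Zc3h13 and 8 other genes of the machinery that writes, reads and removes N6-methyladenosine (m6A) on RNA were followed through single-cell RNA sequencing libraries of the mouse cortex. The members were Zc3h13, Mettl3, Mettl14, Wtap, Cbll1, Ythdc1, Ythdf2, Alkbh5 and Fto, which are 9 of the 30389 genes in the count tables. Zc3h13 was chosen by its measured level, lower in THY-Tau22 males than in wild-type (WT) males of this series, so every male value of Zc3h13 is a description and carries no test. The other members were chosen for their known place in the same machinery. Each library was made from the cortex of 1 mouse at 17 months of age, to ask how expression differs with the tau transgene and with sex. THY-Tau22 mice were heterozygous for a transgene of human 4-repeat tau with the mutations G272V and P301S, driven in neurons by the Thy1.2 promoter, and their WT littermates lacked it. The line was kept by mating heterozygous males to C57Bl6/J females, so all groups shared that background. WT male 1 and THY-Tau22 female 1 share an animal number in their titles although their sex and genotype differ, which the labels do not explain, and both libraries are in every fit. The transgene is expressed in neurons, whereas most cells recovered from the dissociated tissue were glia and endothelial cells.

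m6A is the most common internal mark of messenger RNA. METTL3 places it, in a pair with METTL14, and WTAP, ZC3H13 and CBLL1 (also called HAKAI) belong to the regulatory complex that keeps this enzyme in the nucleus and brings it to its targets. Proteins with a YTH domain bind the mark: YTHDC1 acts in the nucleus on splicing and export, and YTHDF2 acts in the cytoplasm, where it hastens RNA decay. ALKBH5 and FTO are demethylases that can take the mark off again. In the brain the machinery is known for roles in neurogenesis, in synaptic function and in glia.

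Zc3h13 lies at chr14:75284373-75344426 on the plus strand of mm10 (GRCm38, GENCODE M21) and overlaps no other annotated gene. Its longest coding sequence of 5193 bases held long runs rich in adenine. With a window of 20 bases that holds at least 13 A on the coding strand, and with windows counted only when they did not overlap, it held 15. Ythdc1, at chr5:86804221-86836659 on the plus strand, held 5 in 2211 coding bases, and the other 7 members held 0 or 1 each. This definition was chosen after the values had been seen, and the result that turns on it comes last. The stretches below, from the GENCODE coding sequences, show what such a window looks like in 4 members and, for Fto, the richest window of a member that had none. The window is in capitals, with 5 bases on each side in lower case.
Zc3h13, exon 14, chr14:75330358-75330387, plus strand: ccatgATGAAAAGAAAAAAGCAAAAgctcc
Zc3h13, exon 14, chr14:75330489-75330518, plus strand: agaagAAGAAAAACATTGAAAAAAAgcgta
Zc3h13, exon 8, chr14:75315961-75315990, plus strand: tggggAAAAAGTACAAAGAAAAGTAtaaag
Ythdc1, exon 2, chr5:86815701-86815730, plus strand: agagtGAACAAGATAAAAATGAGAAaaaag
Ythdc1, exon 3, chr5:86816464-86816493, plus strand: gatcaAAAAGAAAAAGTGAGAGAATggagt
Mettl14, exon 9, chr3:123372604-123372633, minus strand: gttggATTAAAACCAATAAAAACAAtcctg
Wtap, exon 5, chr17:12980895-12980924, minus strand: atctgAAGAAAAACTAAAGCAGCAAcagca
Fto, exon 6, chr8:91474421-91474450, plus strand: ttttgAAACAAGGAGAGGAAATCCAtaatg

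The 16 tables held 3000 cell barcodes each, and barcodes with 200 to 7000 detected genes were kept as cells. Of the 120 pairs of tables, 1 pair shared 2952 barcodes, namely WT male 3 and THY-Tau22 male 4, and the others shared 3 to 12. These 2 tables hold 1 library under opposite genotypes and were left out of every comparison. The comparisons used 14 libraries with 24578 cells, from 3 WT and 3 THY-Tau22 males and from 3 WT and 5 THY-Tau22 females. Kept cells of these libraries summed to 755945 to 2089367 unique molecular identifiers (UMIs, each counting 1 captured molecule once), with a median of 429 to 736.5 per cell. A further library stood apart: in THY-Tau22 male 3, 28.4% of cells fell in an unnamed cluster that took 0.95% to 5.89% of the cells of the others. That cluster was led by Skint1, Npy, Ccl5 and Lhx6.

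The members were read at very different depths. Zc3h13 had 7142 UMIs and Ythdc1 7678 in the 14 libraries, which is 37.6% and 40.5% of the 18980 UMIs of all members. The other members had between 289 (Mettl3) and 914 (Alkbh5), so that Mettl3 rested on 7 to 36 UMIs per library. No cell gave more than 1.47% of the UMIs of any member.

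Zc3h13, the zinc finger scaffold that holds the regulatory complex in the nucleus, lay at 494, 486 and 493 CPM (the UMIs of a gene as a share of the library's UMIs, on the usual counts-per-million scale) in the WT males. In the THY-Tau22 males it lay at 313, 383 and 254 CPM. The groups did not overlap, and all THY-Tau22 males lay below all WT males, as was so for 6.68% of all genes tested. The means were 491 ± 4.66 and 317 ± 64.3 CPM (SD, n = 3 each), a difference of -174 CPM, and the edgeR log2 fold change was -0.81 ± 0.27 (SE), given without a test. The shared library lay between these groups, at 410 CPM under its WT label and 402 CPM under its THY-Tau22 label. Without THY-Tau22 male 3 the difference was -143 CPM, and with the cells of its unnamed cluster left out of all libraries it was -181 CPM. In a sum over all cells, fewer cells of a type and less RNA per cell cannot be told apart.

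In WT females Zc3h13 lay at 319, 291.5 and 478 CPM, and in THY-Tau22 females at 456, 456, 393, 279 and 397 CPM. These groups overlapped across nearly their whole range, with 363 ± 101 CPM (SD, n = 3) in WT and 396 ± 72.1 CPM (SD, n = 5) in THY-Tau22. The male contrast chose the gene, and the female one was tested: the log2 fold change was 0.11 ± 0.24 (SE), with an adjusted p of 1.00 by edgeR over 11643 genes. It rested on single WT females: it was 0.50 without WT female 3, -0.09 without WT female 2, 0.00 without WT female 1 and 0.49 without both MB22 libraries (WT female 3 and THY-Tau22 female 5, whose titles carry that mark). The study of these libraries lists Zc3h13 as male-specific, a class that it defines by no nominal change in the other sex. A small female difference was therefore favoured in advance, and no conclusion is drawn from this test. The male minus female difference of the log2 fold changes was -0.92 ± 0.37 (SE), again without a test because the male contrast is part of it. In barcodes with fewer than 200 genes, which the filter drops, Zc3h13 averaged 465 ± 34.3 CPM in WT males and 387 ± 83.5 CPM in THY-Tau22 males, with overlapping ranges of 425 to 486 and 291 to 440.

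**Figure D1:**
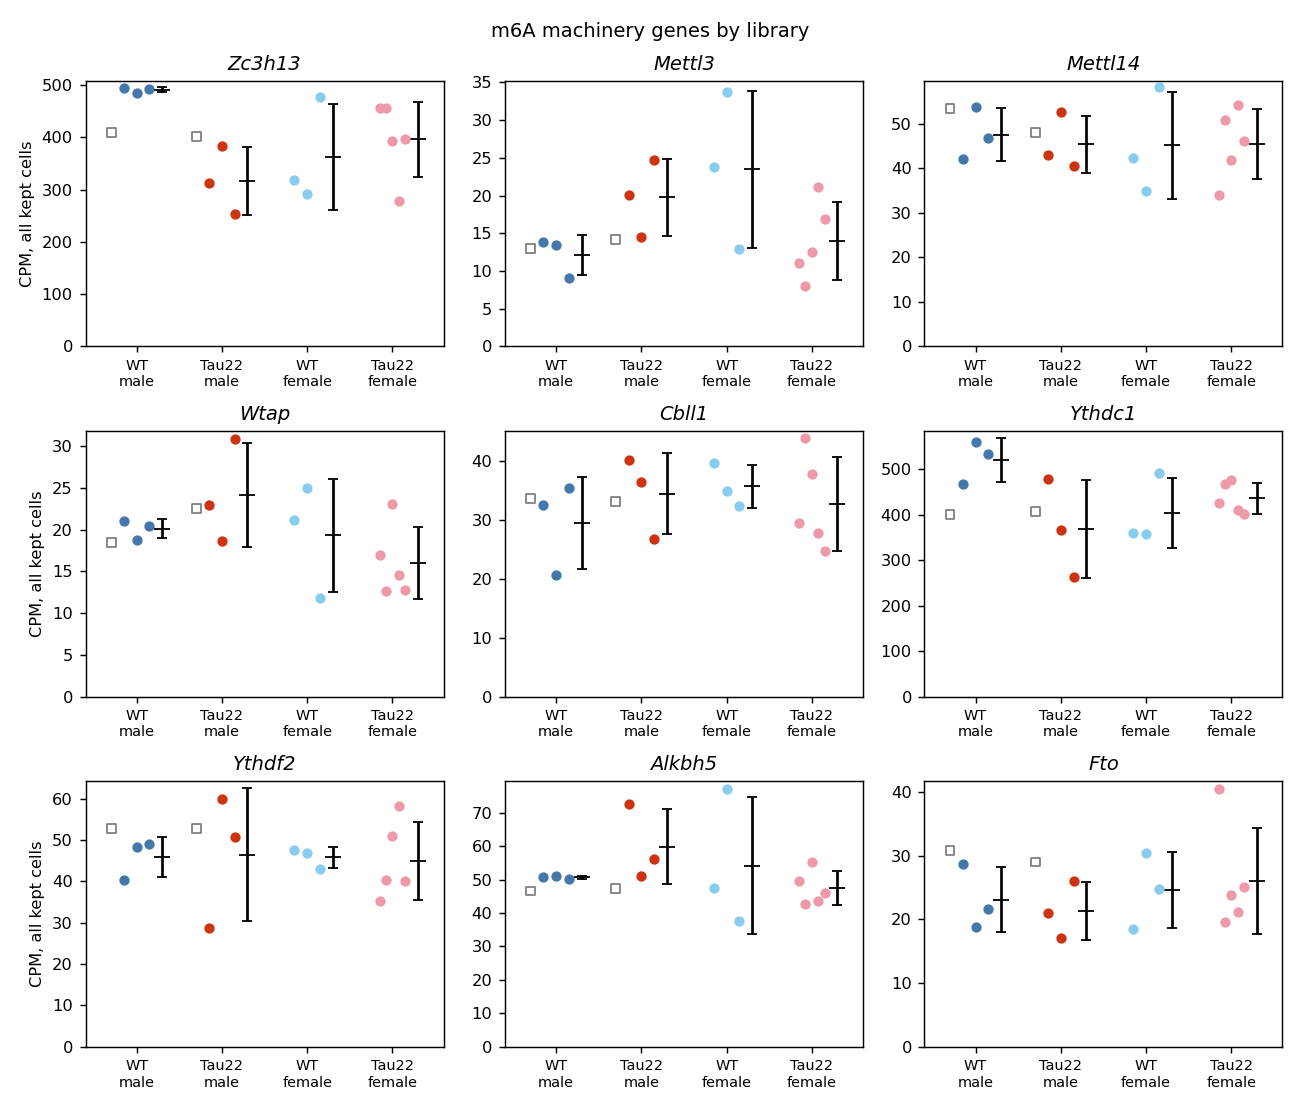
CPM over all kept cells (y axis) of each member in each library, by sex and genotype (x axis); dots are libraries, the bar and whiskers are the mean and SD of a group, and open squares are the library deposited under both genotypes, which is in no mean. In CPM only Zc3h13 and Mettl3 separate the male groups, in opposite directions. With TMM scaling, Zc3h13 and Ythdc1 do and Mettl3 does not. Of all genes tested, 6.68% are lower and 22.4% higher without overlap in THY-Tau22 males by CPM (13.0% and 14.8% with TMM). No member separates the female groups.

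Among the writers, Mettl3, the catalytic subunit, was the only other member whose male groups did not overlap in CPM, though they overlapped with TMM scaling. It lay at 13.9, 13.4 and 9.11 CPM in WT males and at 20.0, 14.6 and 24.7 CPM in THY-Tau22 males, so it was higher with the transgene, opposite to Zc3h13. By CPM, 22.4% of all genes tested were higher without overlap in THY-Tau22 males. In WT females Mettl3 lay at 23.8, 33.7 and 13.0 CPM, and in THY-Tau22 females at 11.1, 8.08, 12.6, 21.2 and 16.9 CPM. The log2 fold change was 0.48 ± 0.36 in males (edgeR unadjusted p = 0.197, adjusted p = 0.522) and -0.67 ± 0.32 in females (edgeR unadjusted p = 0.0481, adjusted p = 1.00). The difference between the sexes was 1.14 ± 0.48 (edgeR unadjusted p = 0.0262, adjusted p = 0.335). None of these passed the threshold after adjustment.

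Mettl14, the partner of Mettl3 that binds the RNA, averaged 45.1 to 47.5 CPM in the 4 groups, and its log2 fold change was -0.24 ± 0.27 in males and -0.05 ± 0.25 in females. Wtap, the adaptor that ties the regulatory subunits to the enzyme, had a log2 fold change of 0.07 ± 0.30 in males and -0.17 ± 0.29 in females. Cbll1, a RING finger subunit of the complex, had 0.03 ± 0.29 and -0.11 ± 0.26. The groups of these 3 members overlapped in both sexes, and every adjusted p by edgeR was at least 0.686.

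Ythdc1, the nuclear reader, came closest to Zc3h13 in its male pattern. It lay at 468, 561 and 533 CPM in WT males and at 479, 366 and 263 CPM in THY-Tau22 males. THY-Tau22 male 1 thus lay above the lowest WT male, and the other THY-Tau22 males lay below all of them. The means were 520 ± 47.9 and 369 ± 108 CPM (SD, n = 3 each), with a log2 fold change of -0.66 ± 0.26 (edgeR unadjusted p = 0.0167, adjusted p = 0.271). Without THY-Tau22 male 3 it was -0.44 and without THY-Tau22 male 1 it was -0.92. In females the values were 360, 358 and 493 CPM in WT and 425, 468, 476, 410 and 401 CPM in THY-Tau22, and the log2 fold change was 0.10 ± 0.23 (edgeR adjusted p = 1.00). The difference between the sexes was -0.76 ± 0.34 (edgeR unadjusted p = 0.0364, adjusted p = 0.363). Without WT female 3 it was -1.06 ± 0.33 and passed with an edgeR adjusted p of 0.0417. The share of all genes called without that library is not given here, so this call is not read as particular to Ythdc1. WT female 3 had the highest Ythdc1 and Zc3h13 of the WT females.

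Ythdf2, the cytoplasmic reader, averaged 45.9 CPM in WT males and 46.4 CPM in THY-Tau22 males, and its log2 fold change was -0.15 ± 0.26 in males and -0.03 ± 0.23 in females. Alkbh5, a nuclear demethylase, had a log2 fold change of 0.06 ± 0.24 in males and -0.13 ± 0.22 in females. Fto, the other demethylase, had -0.33 ± 0.32 in males and 0.11 ± 0.28 in females. Their groups overlapped in both sexes, and every adjusted p by edgeR was at least 0.632.

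**Figure D2:**
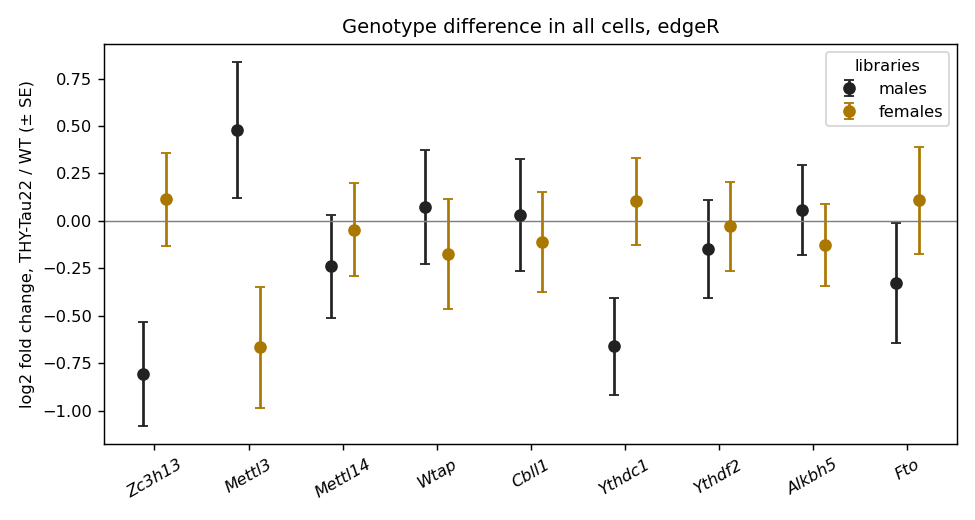
edgeR log2 fold change of THY-Tau22 over WT in all cells (y axis; points with SE) of each member (x axis), in males and in females. Zc3h13 and Ythdc1 have the lowest male values, at -0.81 and -0.66, and Mettl3 is positive in males and negative in females.

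These values were read against all genes tested. A gene counted as called where its adjusted p was below 0.05 and its log2 fold change reached 0.5 in either direction. By that rule edgeR called 0% of 11643 genes for the male contrast, and likewise 0% for the female contrast, for the mean of both and for their difference, and so no member. At an unadjusted p under 0.05 it listed 1792, 203, 491 and 1482 genes, and DESeq2 called 74, 0, 0 and 4. Male and female libraries of 1 genotype differed in 0.0515% of genes in WT and 0.0601% in THY-Tau22, no member among them. By CPM, the male groups did not overlap for 6.68% of genes with THY-Tau22 lower and for 22.4% with THY-Tau22 higher, so that a gap like that of Mettl3 was common. With TMM scaling (library sizes corrected for composition) the shares were 13.0% and 14.8%, Ythdc1 joined Zc3h13 among the genes lower, and Mettl3 no longer separated. In females the CPM shares were 0.507% lower and 0.679% higher, and no member was among them.

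The male libraries also differed in measures of RNA composition. The mitochondrial ribosomal RNAs mt-Rnr1 and mt-Rnr2 took 17.1% to 23.0% of UMIs in WT males and 11.3% to 13.2% in THY-Tau22 males. Mitochondrial mRNAs took 0.46% to 0.702% and 1.06% to 1.48%, ribosomal protein mRNAs 0.989% to 1.22% and 1.66% to 2.09%, and nuclear-retained noncoding RNAs such as Malat1 5.28% to 6.53% and 3.12% to 4.33%. Each measure separated the male groups, as did the shares of astrocyte-like and endothelial-like cells, where THY-Tau22 minus WT was -3.09 and -3.28 percentage points. Each of these 6 differences had an exact permutation p of 0.10, the smallest that 3 against 3 libraries allow, and an adjusted p of 0.371 over 26 tests. Female groups overlapped in all of them. The endothelial-like share was lower in THY-Tau22 females as well, by a difference of -2.57 percentage points (exact permutation p = 0.0714, adjusted p = 0.371).

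Markers of T and NK cells moved with the male groups as well. This list was looked at because it scored highest in the unnamed cluster of THY-Tau22 male 3, and no other marker list was compared this way. All 7 markers of that list were detected in THY-Tau22 males 1 and 3 and 6 in THY-Tau22 male 2, against 2 to 5 in the WT males. Their summed level was 18.1 to 34.3 CPM in THY-Tau22 males and 3.42 to 6.27 CPM in WT males. In females it was 5.30 to 74.1 CPM, with overlap between the genotypes. By CPM, 22.4% of all genes tested were higher without overlap in THY-Tau22 males, so such a gap was common. The part of any of these measures in the male difference of Zc3h13 was not tested. When the share of mt-Rnr1 and mt-Rnr2 was added to the model as a covariate, an alternative chosen after seeing the data, the male log2 fold change of Zc3h13 moved from -0.81 to -0.36 ± 0.20. Under it Ythdc1 moved from -0.66 to -0.44 ± 0.24 and Mettl3 from 0.48 to 0.07 ± 0.37. Genes with an unadjusted p under 0.05 by edgeR in males went from 1792 to 455. The covariate separated the male groups without overlap, so in males it cannot be told apart from genotype. No conclusion is drawn from these shifts.

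The 8 female libraries, which are outside the male contrast that chose Zc3h13, allowed its level to be compared with these measures over libraries. Zc3h13 CPM rose with the share of mt-Rnr1 and mt-Rnr2, with Pearson r = 0.931 (exact permutation p = 0.000818, adjusted p = 0.0106) and Spearman rho = 0.905 (exact permutation p = 0.00456, adjusted p = 0.0297). WT female 2, with 4.66% of UMIs on these RNAs, had 291.5 CPM, and WT female 3, with 23.1%, had 478 CPM. The relation gave r = 0.90 without the 2 libraries farthest from the median share, r = 0.942 without the 2 MB22 libraries (a mark whose meaning the labels do not give), and r = 0.93 after removing the genotype means. Both quantities share the total UMIs of a library as their denominator. With the median UMI per cell, r was 0.256 (exact permutation test, adjusted p = 0.652) and rho 0.357 (exact p = 0.389).

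The other measures of composition ran in the same or the opposite sense. Zc3h13 was higher in female libraries with more nuclear-retained RNA, with r = 0.855 (exact permutation p = 0.00913, adjusted p = 0.024) and rho = 0.833 (exact p = 0.0154, adjusted p = 0.050). It was lower in those with more ribosomal protein mRNA, with r = -0.857 (exact permutation p = 0.00454, adjusted p = 0.0217) and rho = -0.905 (exact p = 0.00456, adjusted p = 0.0297). It was also lower in those with more mitochondrial mRNA, with r = -0.848 (exact permutation p = 0.00923, adjusted p = 0.024) and rho = -0.833 (exact p = 0.0154, adjusted p = 0.050). Without the 2 farthest libraries these r were 0.751, -0.822 and -0.759, and without the MB22 libraries 0.908, -0.84 and -0.809.

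Among the members, Mettl3 ran against Zc3h13 in females, with r = -0.848 (exact permutation p = 0.00501, adjusted p = 0.0217), although rho was -0.714 (exact permutation p = 0.0576, adjusted p = 0.125). It gave r = -0.851 without the 2 farthest libraries and -0.872 without the MB22 libraries. Ythdc1 gave r = 0.764 (exact permutation p = 0.0362, adjusted p = 0.0672) and rho = 0.667 (exact p = 0.0831), and Ythdf2 gave r = -0.744 (exact permutation p = 0.0347, adjusted p = 0.0672) and rho = -0.738 (exact p = 0.0458, adjusted p = 0.119). Without the 2 farthest libraries these were 0.579 and -0.537. The other 5 members had r between -0.549 and 0.259, with no adjusted p under 0.25 for r, and the lowest for rho was 0.187 (Wtap). There were 13 such relations, and each set of p-values was adjusted over them.

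**Figure D3:**
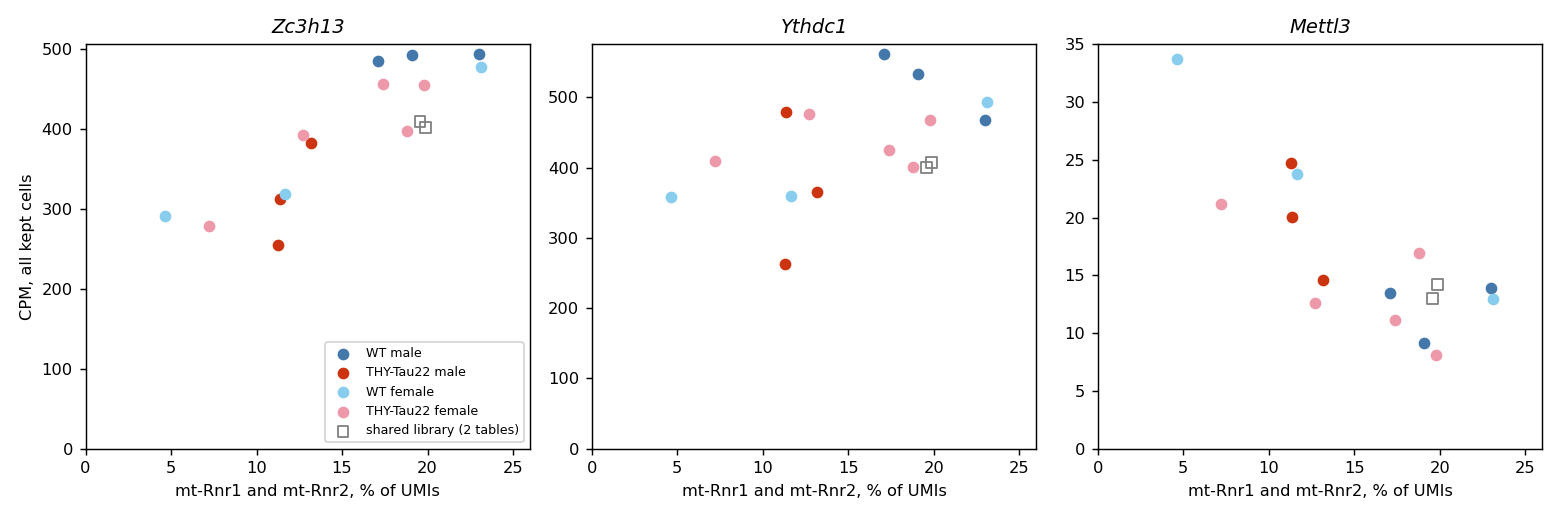
CPM over all kept cells (y axis) of Zc3h13, Ythdc1 and Mettl3 against the percent of a library's UMIs on mt-Rnr1 and mt-Rnr2 (x axis); dots are libraries coloured by group, and open squares are the 2 tables of the shared library. Zc3h13 is at 254 to 393 CPM in the libraries with at most 13.2% and at 397 CPM or more in those with at least 17.1%, and Mettl3 runs the opposite way. The male points include the genotype difference that chose Zc3h13. With group means removed, r of Zc3h13 with this share is 0.363 in the 6 males and 0.930 in the 8 females.

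Levels of the members differed between cell classes. Classes were clusters named "-like" from marker genes, built without the members and without the genes of the lists used here, and each class was compared with each other class within a mouse. Zc3h13 was highest in neuron-like cells, at a mean of 708 ± 192 CPM (SD, n = 14 libraries), followed by endothelial-like cells at 513 ± 106 CPM. Oligodendrocyte precursor (OPC)-like cells had 388 ± 182, microglia-like cells 371.5 ± 91.2, oligodendrocyte-like cells 298 ± 70.8 and astrocyte-like cells 281 ± 73.7 CPM. Neuron-like and OPC-like sums rested on as few as 26 and 19 cells in a library.

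Of the members, only Zc3h13, Ythdc1, Ythdf2, Alkbh5 and Mettl14 passed the filter on low counts for these class sums, and the low counts of the other 4 left them untested. Between classes, edgeR called 45.0% to 69.4% of the 4972 genes tested, so a called difference was the usual case and not particular to the members. By pair, it called 69.4% for microglia against neuron, 66.8% for endothelial against neuron, 66.1% for oligodendrocyte against neuron, 61.8% for astrocyte against neuron and 46.6% for OPC against neuron. Microglia differed from astrocyte in 65.9% of genes, from oligodendrocyte in 63.7%, from OPC in 63.7% and from endothelial in 52.1%. Endothelial differed from astrocyte in 62.5%, from OPC in 58.8% and from oligodendrocyte in 56.3%, and astrocyte from oligodendrocyte in 56.5%, oligodendrocyte from OPC in 54.1% and astrocyte from OPC in 45.0%.

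The members gave 37 called differences in 75 tests, and 31 of these were also called with plain library sizes in place of TMM, which called 42. The scaling mattered most for OPC-like sums, whose TMM factors averaged 1.34. Zc3h13 was higher in neuron-like than in astrocyte-like cells by 1.16 ± 0.10 on the log2 scale (edgeR adjusted p = 8.3e-22), than in oligodendrocyte-like cells by 1.14 ± 0.10 (adjusted p = 1.2e-21), than in OPC-like cells by 1.12 ± 0.12 (adjusted p = 2.9e-16) and than in microglia-like cells by 0.81 ± 0.10 (adjusted p = 9.4e-14). It was higher in endothelial-like than in astrocyte-like and oligodendrocyte-like cells, by 0.60 and 0.58. These 6 held under both scalings, while neuron-like over endothelial-like (0.56 with TMM, 0.48 without) and endothelial-like over OPC-like (0.56 and 0.27) were called with TMM only. Neighbours in the lower part of the order did not differ beyond the threshold with TMM, and microglia-like against OPC-like changed sign, from 0.31 with TMM to -0.21 without.

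Ythdf2 and Alkbh5 were highest in another class than Zc3h13. Ythdf2 was highest in microglia-like cells, at 86.3 ± 22.5 CPM (SD, n = 14), against 25.6 to 55.2 CPM in the other classes. Microglia-like cells exceeded each of the 5 others under both scalings. The filter on low counts was passed through the class where Ythdf2 was highest, so these differences are descriptions and not independent support. The difference was 1.13 (OPC-like) to 1.81 (oligodendrocyte-like) on the log2 scale with TMM and 0.60 to 1.81 without. In the fits within a class Ythdf2 passed the filter only in microglia-like cells, the class where it was highest. The other classes held 42 (OPC-like) to 88 (astrocyte-like) of its UMIs, against 322 in microglia-like cells. Between classes Ythdf2 failed the filter under 2 cell settings. These were a minimum of 500 detected genes and the removal of cells carrying markers of 2 classes. Alkbh5 was also highest in microglia-like cells, at 71.3 ± 19.2 CPM, and its mean was lowest in neuron-like cells, at 18.5 ± 18.4 CPM. The difference of these 2 classes was 1.90 ± 0.27 on the log2 scale with TMM (edgeR adjusted p = 1.0e-10) and 1.75 without. The neuron-like level of Alkbh5 rested on 24 UMIs, with no UMI in 2 of the 14 libraries. In the fits within a class Alkbh5 passed the filter only in microglia-like and oligodendrocyte-like cells, where its means were highest. Between classes it failed the filter without WT female 2 and under the same 2 cell settings as Ythdf2. Its between-class differences are likewise descriptions, since the classes with its highest counts carried it past the filter.

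Ythdc1 averaged 573 ± 150 CPM in endothelial-like and 543 ± 134 CPM in microglia-like cells, a pair that did not pass the test, and 229 ± 62.0 CPM in astrocyte-like cells. Microglia-like cells exceeded astrocyte-like cells by 1.18 ± 0.09 (edgeR adjusted p = 1.4e-25) and neuron-like cells by 0.79 ± 0.11 (adjusted p = 7.6e-12) on the log2 scale, so the class with the most Zc3h13 was not the class with the most Ythdc1. Mettl14 was lower in neuron-like cells, at 19.2 ± 17.7 CPM, than in each other class under both scalings, by 0.80 (endothelial-like) to 1.30 (OPC-like) with TMM. That neuron-like level rested on 29 UMIs with 5 of 14 libraries at 0, Mettl14 passed the filter through the other classes, and it failed the filter in 8 of the 14 fits that left out 1 library. The untested members had mean levels of 13.9 to 28.9 CPM (Mettl3), 8.02 to 26.3 CPM (Wtap), 21.2 to 60.7 CPM (Cbll1) and 15.6 to 45.1 CPM (Fto) over the 6 classes, with libraries at 0 in some classes for each.

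Within classes, the male difference of Zc3h13 had the same sign in all 6. It is described here without a test. In neuron-like cells WT males lay at 834, 841 and 889 CPM and THY-Tau22 males at 672, 604 and 442 CPM. In astrocyte-like cells they lay at 353, 340 and 390 CPM and at 214, 287 and 161 CPM, and the groups did not overlap in either class. They also did not overlap in microglia-like, oligodendrocyte-like and OPC-like cells, but in endothelial-like cells they did, with WT males at 553 to 608 CPM and THY-Tau22 males at 350 to 641 CPM. The share of all genes with such a gap was not counted within classes. In all cells it was 6.68% for genes lower in THY-Tau22 males by CPM, which need not hold within a class. Without a share for each class, these gaps are not read as particular to Zc3h13. The male log2 fold changes were -1.05 ± 0.43 in OPC-like, -0.99 ± 0.31 in astrocyte-like, -0.84 ± 0.28 in oligodendrocyte-like, -0.70 ± 0.35 in neuron-like, -0.62 ± 0.30 in microglia-like and -0.46 ± 0.28 in endothelial-like cells. With the mt-Rnr1 and mt-Rnr2 share as a covariate, which cannot be told apart from genotype in males, they lay between -0.60 (astrocyte-like) and -0.09 (endothelial-like). In females, where the rule left a test, the log2 fold changes ran from -0.17 in neuron-like and oligodendrocyte-like cells to 0.36 in endothelial-like cells, and every adjusted p by edgeR was at least 0.996.

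**Figure D4:**
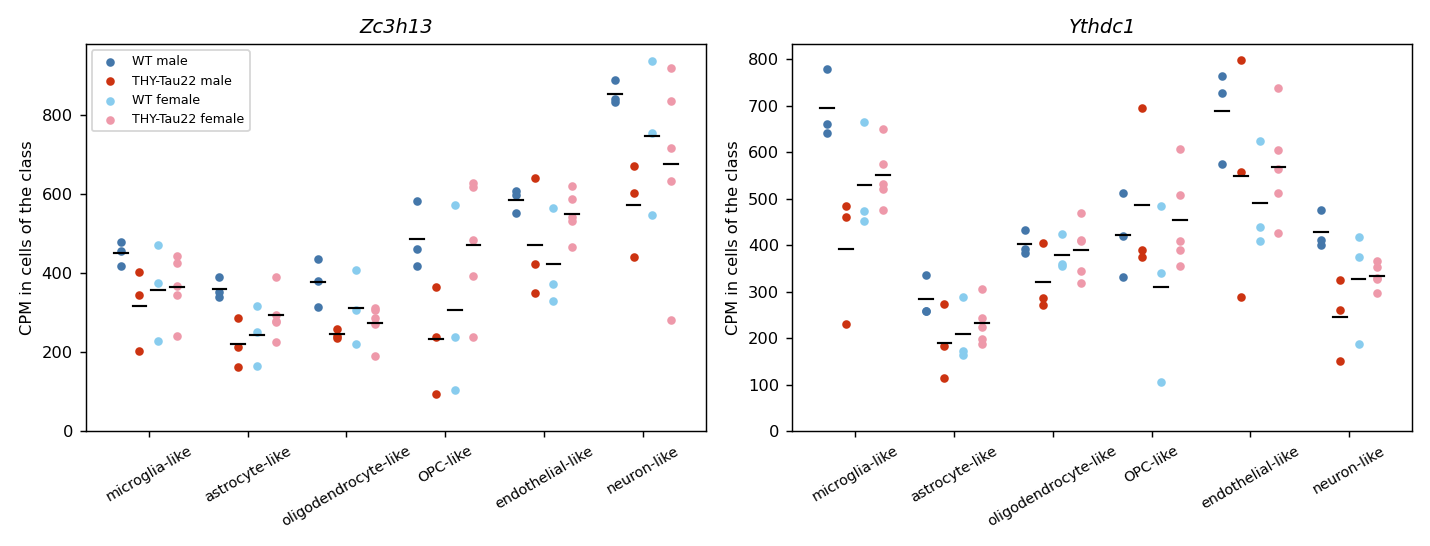
CPM in the cells of a class (y axis) of Zc3h13 and Ythdc1 in 6 marker-named classes (x axis); dots are libraries coloured by group and black bars are group means. Zc3h13 is highest in neuron-like cells and its male group means are lower in THY-Tau22 in all 6 classes, while Ythdc1 is highest in endothelial-like and microglia-like cells.

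Ythdc1, which was tested, came closest to the threshold in microglia-like cells of males. It lay at 640, 780 and 661 CPM in microglia-like cells of WT males and at 483, 461 and 230 CPM in THY-Tau22 males, without overlap. The share of all genes without overlap was not counted in this class. At an unadjusted p under 0.05 by edgeR, 346 of 4790 genes were lower in microglia-like cells of THY-Tau22 males. The log2 fold change of Ythdc1 was -0.92 ± 0.27 (edgeR unadjusted p = 0.00191, adjusted p = 0.0984), which missed the threshold. DESeq2 gave -0.91 (adjusted p = 0.031), and edgeR gave adjusted p = 0.0334 without WT female 3 and 0.0375 without both MB22 libraries. With the mt-Rnr1 and mt-Rnr2 share as a covariate, which cannot be told apart from genotype in males, edgeR gave adjusted p = 0.782. In females the values in these cells were 451, 473 and 665 CPM in WT and 521, 650, 574, 476 and 531 CPM in THY-Tau22, with a log2 fold change of 0.03 ± 0.24. The difference between the sexes was -0.95 ± 0.37 (edgeR adjusted p = 0.247), and -1.23 ± 0.36 (adjusted p = 0.029) without WT female 3. For these alternative settings the share of all genes called is not given here, so no call is read as particular to Ythdc1.

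In astrocyte-like cells the male log2 fold change of Ythdc1 was -0.87 ± 0.33 (edgeR adjusted p = 0.181) and in neuron-like cells -0.95 ± 0.37 (adjusted p = 0.527). In OPC-like cells it was 0.06 ± 0.36. The difference between the sexes in astrocyte-like cells was -0.99 ± 0.43 (edgeR adjusted p = 0.236), and -1.54 ± 0.42 (adjusted p = 0.0114) without WT female 3. Here too the share of all genes called without WT female 3 is not given. No member was called in any class by the edgeR fit of all 14 libraries. In the same fits, edgeR called 0.731% of genes in microglia-like and 0.101% in oligodendrocyte-like cells of males, 0.0251% in oligodendrocyte-like cells of females, 0.0791% in OPC-like cells averaged over both sexes and 0.402% for the difference between the sexes in oligodendrocyte-like cells, and 0% in the other classes for these 4 genotype contrasts.

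Other genes of the pathway were read from lists drawn up with earlier results of these data known. Over all 11643 genes, 740 were lower and 1052 higher in THY-Tau22 males at an unadjusted p under 0.05 by edgeR, and 48.8% had a log2 fold change below 0. With Zc3h13 left aside, no measured writer gene reached that p in males. Of 5 YTH readers, 2 did, both lower in THY-Tau22 males: Ythdc1 and Ythdc2, a reader with a helicase domain, at -0.999 ± 0.34 (adjusted p = 0.243). Neither of the 2 erasers, none of 6 other m6A-linked RNA-binding proteins and none of 11 CCR4-NOT subunits, which shorten the poly(A) tail of marked RNA, did so. Of 5 other RNA adenosine methyltransferase genes, 1 was higher, Trmt112, an activator of several methyltransferases, at 0.89 ± 0.38 (adjusted p = 0.288), and of 4 genes of the S-adenosylmethionine cycle, which supplies the methyl group, 1 was higher, Mat2b, named after its value was seen.

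Lists outside the m6A pathway were read against the same shares of all genes. Among 20 nuclear speckle and SR-rich protein genes, 16 were below 0 in males with a median of -0.33, and at an unadjusted p under 0.05 by edgeR 5 were lower and 1 was higher. Son, a scaffold of nuclear speckles, was at -0.54 ± 0.23, Srrm1, a splicing coactivator, at -0.50 ± 0.22, and Prpf4b, a splicing kinase, at -0.62 ± 0.25. The others lower were Bclaf1, at -0.61 ± 0.25, and Acin1, named after its value was seen. Srsf5, an SR splicing factor, was the 1 higher, at 0.65 ± 0.21 (adjusted p = 0.234). Among 11 other CCCH zinc finger genes the median was -0.28, and the 2 at an unadjusted p under 0.05 were Zc3h18 at -0.71 ± 0.27 and Zc3h11a at -0.99 ± 0.44. The nuclear-retained RNA Malat1 was at -0.79 ± 0.34, and 5 such RNAs had a median of -0.54. The median of all 11643 genes was 0.01. In females the medians of these lists lay between -0.15 and 0.13, and no listed gene was called in either sex.

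The genes whose level followed Zc3h13 most closely over the 14 libraries were Rock2, Akap9, Atrx, Gcc2 and Eea1, by Pearson r of TMM log2 CPM of 0.985, 0.980, 0.976, 0.974 and 0.973. Akap9 and Gcc2 encode coiled-coil proteins of the Golgi, Atrx a chromatin remodeller and Eea1 an early endosome tether. After the mean of each sex and genotype group was removed, the closest were Atrx, Rock2, Akap9, RP23-403D16.3 and Eea1, with r of 0.966 to 0.978. These libraries share depth and composition, so the r are descriptions without a p. Among the members, Ythdc1 followed Zc3h13 with r = 0.859, rank 286 of 6552 genes with a mean of at least 20 CPM and an annotated coding sequence. Mettl14 gave 0.585, Fto 0.307, Cbll1 0.268, Ythdf2 0.114, Alkbh5 -0.192 and Wtap -0.315, and Mettl3 was under the level limit.

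The genes nearest to Zc3h13 shared A-rich windows and a long coding sequence with it. Rock2, Akap9, Atrx, Gcc2 and Eea1 held 10, 16, 21, 14 and 14 of the A-rich windows defined above in their coding sequences. Of the 6552 genes of every length, 54.8% held none, 7.07% held at least 5 and 0.473%, 31 genes, held at least the 15 of Zc3h13. The coding sequences of these 5 genes were long, at 4236 to 11340 bases. Among the 1637 genes with coding sequences of at least 2379 bases, 481 held no window and 342 held at least 5. A window each of Rock2, Akap9, Atrx and Eea1 is shown, to be set beside the stretches of Zc3h13 printed above.
Rock2, exon 2, chr12:16926982-16927011, plus strand: tgaggAAAAATAAAAATATAGATAActtct
Akap9, exon 7, chr5:3960116-3960145, plus strand: aagacAGAAAAATAGAAAACTTAAAtgcaa
Atrx, exon 9, chrX:105876935-105876964, minus strand: tgtacACAAAGAAAAAAATACCAAAgacct
Eea1, exon 21, chr10:96028519-96028548, plus strand: tcagcTGAACAAAAGAAAAAACAAAttgaa

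Across these genes the likeness to Zc3h13 was higher in genes with more windows, given as a description since the 14 libraries include the male values that chose Zc3h13. The median r was -0.31 for genes with no window, 0.20 with 1, 0.39 with 2, 0.59 with 3 to 4 and 0.79 with 5 or more. The male log2 fold change ran the same way, from a median of 0.18 with no window to -0.49 with 5 or more, and 97.4% of the 463 genes in the last class were lower in THY-Tau22 males, against 34.5% of the 3592 with none. In females the median log2 fold change went from -0.07 to 0.13. Over the 8 female libraries alone, the median r of these classes was -0.30, 0.15, 0.30, 0.53 and 0.77. Ythdc1, with 5 windows, lay with the last class at -0.66, and the members with 0 or 1 window lay between -0.33 and 0.48. Counted over the whole transcript, untranslated parts included, the members did not keep this order: Cbll1 held 8 windows, more than the 5 of Ythdc1, with a male log2 fold change of 0.03, and Ythdf2 and Alkbh5 held 4 each, at -0.15 and 0.06.

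Longer coding sequences hold more windows, and Spearman's rho of r with coding length across genes (0.619) was larger than with windows (0.544). When the genes were split by coding length into 4 groups of like size, the median r was still higher with 5 or more windows than with none in each group. Among genes with no window the median r also rose with coding length, over the 4 groups from -0.66 to -0.33, 0.00 and 0.30, and their median male log2 fold change went from 0.43 to -0.17, so length moved with r as far with windows held at 0. With windows, r went from -0.66 to 0.47 in the shortest group, where the last class held 8 genes, and from 0.30 to 0.82 in the longest. Asking for 12 or 14 A in a window in place of 13 gave rho of 0.608 and 0.430, with 22 and 7 windows in Zc3h13. Genes are not replicates, and the counts of windows describe sequence and not a site that was measured. What links the windows to the level of a gene in a library was not tested.

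**Figure D5:**
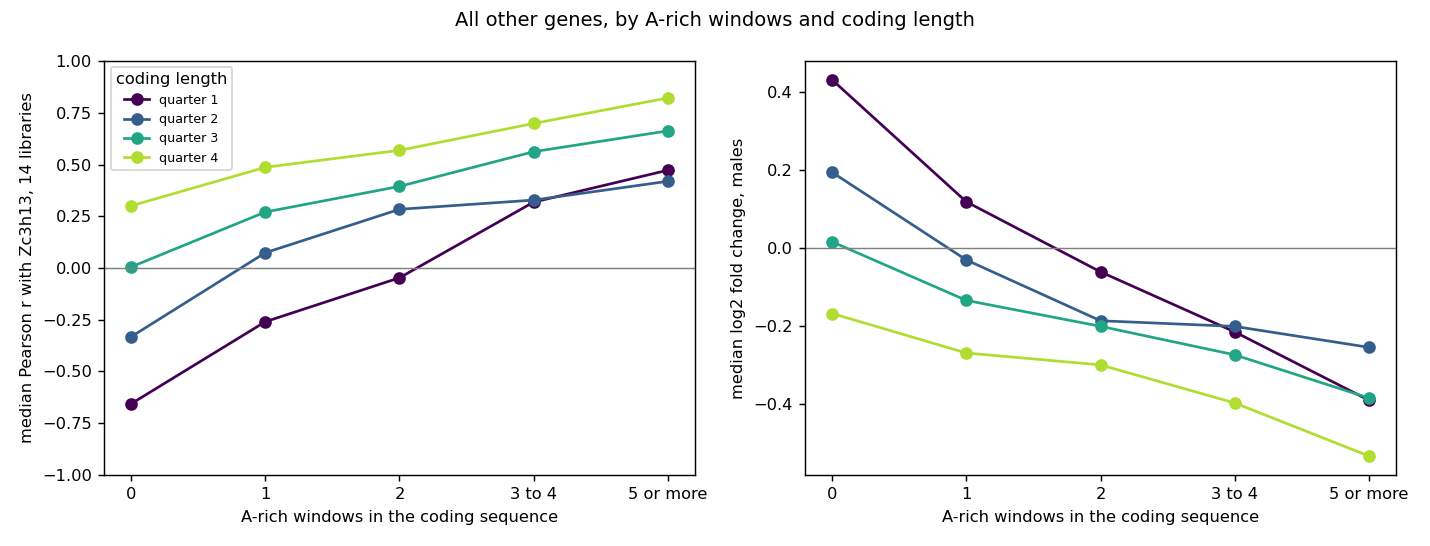
Median over genes of the Pearson r with Zc3h13 over 14 libraries (left, y axis) and of the male log2 fold change (right, y axis) by the number of A-rich windows in the coding sequence (x axis); lines are 4 groups of genes by coding length, numbered from the shortest (1) to the longest (4). In every group the likeness to Zc3h13 is higher and the male fold change lower in genes with 5 or more windows than in genes with none, the shortest group resting on 8 genes there.

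Some of these symbols share genomic ground with other genes, and whether the counting used strand is not given in the sources used here. Mettl3 overlaps Tox4 on the opposite strand, Cbll1 overlaps the antisense gene Gm29542, Ythdc1 overlaps the noncoding gene Gm43055 and Fto overlaps 8 others. Gm43055 and some partners of Fto lie on the same strand as the member, so their reads may not be told apart from its own. For partners on the opposite strand this holds only if the counting did not use strand.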

How the data were processed

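The deposited files held Drop-seq UMI counts, with genes in rows and cell barcodes in columns, which the authors made with the standard Drop-seq pipeline (version not given) from reads of 3′-enriched libraries. The build was mm10 per the submitters' processing notes, and the aligner, its settings and the annotation are not given in the sources used here. Counts were used as deposited. The members and gene lists were chosen with earlier results of these data known. Barcodes with 200 to 7000 genes were kept, and the study's mitochondrial limit of 5% was run as an alternative (counted without mt-Rnr1 and mt-Rnr2). Cells were clustered on 2500 variable genes, 19 principal components and 20 neighbours with leidenalg 0.10.2 at resolution 0.5. Of 20 clusters, those with at least 3 detected markers and matching leading genes were named, so names may differ from the study's. No doublet caller was run, and removal of cells with at least 2 marker UMIs of each of 2 classes was an alternative.

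UMI counts were summed per mouse, since cells of 1 mouse are not replicates. Sums were tested with edgeR 4.0.16 (R 4.3.3) by the quasi-likelihood test, with TMM, filterByExpr and 1 mean per group, or with the library as a block between classes, with Benjamini-Hochberg adjustment over all genes tested. The study tested cells by Poisson regression, which was not used. A class needed at least 10 cells in a library. Alternatives were DESeq2 1.42.0, other filters, other sets of libraries and, added after seeing the data, the mt-Rnr1 and mt-Rnr2 share as a covariate and plain library sizes. The p-values measure the spread between mice. For library measures, the permutation tests were exact and two-sided. In counts simulated for the male contrast over 11424 genes, 28.3% of genes changed by a log2 of 1 and 87.6% of those changed by a log2 of 2 were recovered, with 6 false calls. Beside the members, up to 10 list genes with the smallest unadjusted p under 0.05 were named, and the 5 most like Zc3h13 on each measure. No protein sequence was used here.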

Additional observations from a re-analysis of the deposited data

Results flagged for a closer look

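Of 34 groups of 5 libraries examined, 2 held a library far from the others, and chance flags about 1 group in 20. Fto was at 40.5 CPM in THY-Tau22 female 1, where the next of the THY-Tau22 females was at 25.1 CPM. The share of oligodendrocyte-like cells was 10.9% in THY-Tau22 female 3, where the next lowest THY-Tau22 female had 18.0%.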

How the results depend on the processing

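In all cells 0 members were called, and leaving out each library in turn gave 0 to 1: without WT female 3, Ythdc1 was called for the difference between the sexes. Within classes 0 calls became 1 with DESeq2, 2 with cells of 500 to 7000 genes and 3 without both MB22 libraries, all of Ythdc1. Leaving out each library in turn gave 0 to 3. The share of all genes called within classes under these settings is not given here, so the calls are not read as particular to Ythdc1. Between classes 37 calls became 15 with cells of 500 to 7000 genes and 17 with cells carrying markers of 2 classes removed, where only 2 members passed the filter, and 27 to 38 when each library was left out. The male difference of Zc3h13 of -174 CPM became -252 CPM over non-mitochondrial UMIs, -230 CPM with TMM sizes and -231 CPM with cells of 500 to 7000 genes, and -207 to -143 CPM when each male library was left out. Over all genes in males, 0 calls by edgeR became 74 with DESeq2. The cause of these changes was not tested. Folds of members near 0 in all cells changed sign under some settings, none of them called, such as Mettl14 in males from -0.24 to 0.17 with cells of 500 to 7000 genes and Alkbh5 in females from -0.13 to 0.12 without WT female 2. Between TMM and plain sizes 7 of the 75 class differences changed sign, none called under either. With 3 against 3 males the exact test cannot go below 0.10, and members other than Zc3h13 and Ythdc1 rested on too few UMIs for most class tests. No paired analysis was possible because, for the genotype contrasts, the replicate numbers only name a mouse.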
